A study of Xenopus laevis with 3 samples.

Results

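The anterior gradient genes ag1 and agr2 were followed in heads of Xenopus laevis tadpoles after knockdown of the protein kinase MLTK or the transcription factor Sox6. The genes were found by annotation: a probe set was taken when its single gene symbol was ag1 or agr2. This gave 5 probe sets of 32635 on the array, and 4 genes of the 11303 that could be named, ag1.L, ag1.S, agr2.L and agr2.S. The endings mark homeologs, the copies of a gene on the long (.L) and short (.S) chromosomes of the frog's subgenomes. The 3 groups were heads of embryos injected with the morpholino xMLTK-MO, with xSox6-MO, or with CoMO, which served as the control here. A morpholino is a synthetic oligonucleotide that blocks translation or splicing of an mRNA. All embryos, controls included, had received 10 ng of morpholino in each blastomere at the 4-cell stage. They were raised at 22 °C and their heads were taken 72 hours after fertilisation, at about stage 41. Each group had 1 array. The spread between embryos is therefore unknown, no test was run, and the values speak for these single arrays, whose number limits the precision. No probe set was named for MLTK (map3k20) or sox6 (0 of those with 1 symbol), and the knockdown itself was not measured here. The sources used here do not say whether the groups shared a clutch or how many heads went into a sample.

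Anterior gradient proteins are small secretory-pathway proteins with a thioredoxin-like fold and belong to the protein disulfide isomerase family, the enzymes that form and rearrange disulfide bonds in new secreted proteins. In Xenopus both genes are classical markers of the cement gland, a mucus-secreting organ at the front of the head by which the hatched embryo holds on to surfaces, and the organ later regresses. In mouse the agr2 protein sits in the endoplasmic reticulum of mucus-secreting cells of the gut and is needed to make the mucin Muc2, and in newts a related protein supports limb regrowth.

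The deposited values are probe-set intensities, of which log2 was taken. A gene was counted as different when its log2 intensities on a pair of arrays differed by at least 1, which is 2-fold. The background was 7258 genes with a mean log2 intensity of at least 6.51, the median of all probe sets, and all 4 members passed this filter. Every member probe set was well above the negative controls, probe sets that match no frog RNA, with the dimmest value 27.9 times and the brightest 264 times the highest negative control of its array. Detection was thus not limiting for any member. Brightness depends on the probes as well as on the RNA, so an intensity is compared here between arrays and not between genes.

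Both copies of ag1 were lower in both knockdowns, and ag1.S by more than ag1.L. The single ag1.L probe set had an intensity of 2385 in xMLTK-MO heads, 2087 in xSox6-MO heads and 3370 in CoMO heads. CoMO was the brightest array for this gene, and the 2 knockdown arrays lay close together. The log2 difference from CoMO was -0.50 in xMLTK-MO and -0.69 in xSox6-MO, which is 1.41-fold and 1.62-fold lower. Neither passes 2-fold.

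ag1.S was read by 2 probe sets. The first, whose name ends in S1, had an intensity of 730 in xMLTK-MO, 594 in xSox6-MO and 1893 in CoMO. Against CoMO it was 2.59-fold lower in xMLTK-MO and 3.18-fold lower in xSox6-MO. The second, ending in S2, had 3205 in xMLTK-MO, 3002 in xSox6-MO and 6134 in CoMO, and was 1.91-fold and 2.04-fold lower. Both probe sets put the arrays in the same order, with CoMO highest and xSox6-MO lowest, as did that of ag1.L. They disagreed in size by 0.44 log2 units in xMLTK-MO minus CoMO and by 0.64 in xSox6-MO minus CoMO. Over 684 genes with 2 probe sets that both passed the filter, the median gap of this kind was 0.11 and 0.17, and 6.29% and 3.80% of the genes had a gap at least as large. The size of the ag1.S difference therefore depended on the probe set to a degree that was uncommon on these arrays. As the mean of its probe sets, ag1.S had a log2 difference of -1.16 in xMLTK-MO and -1.35 in xSox6-MO, or 2.23-fold and 2.55-fold lower. With S2 alone the difference in xMLTK-MO was -0.94, short of 2-fold.

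The copies of agr2 were lower in xMLTK-MO and nearer to the control in xSox6-MO. The agr2.L probe set had an intensity of 2729 in xMLTK-MO, 3787 in xSox6-MO and 3919 in CoMO. Only the xMLTK-MO array stood apart for agr2.L, and the xSox6-MO value was 3.37% below that of CoMO. The log2 differences from CoMO were -0.52 in xMLTK-MO and -0.05 in xSox6-MO. The agr2.S probe set had 2713 in xMLTK-MO, 3016 in xSox6-MO and 3829 in CoMO. Here the xSox6-MO array lay between the other two, with log2 differences from CoMO of -0.50 in xMLTK-MO and -0.34 in xSox6-MO. In folds, agr2.L was 1.44-fold lower in xMLTK-MO and 1.03-fold lower in xSox6-MO, and agr2.S 1.41-fold and 1.27-fold lower.

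**Figure D1:**
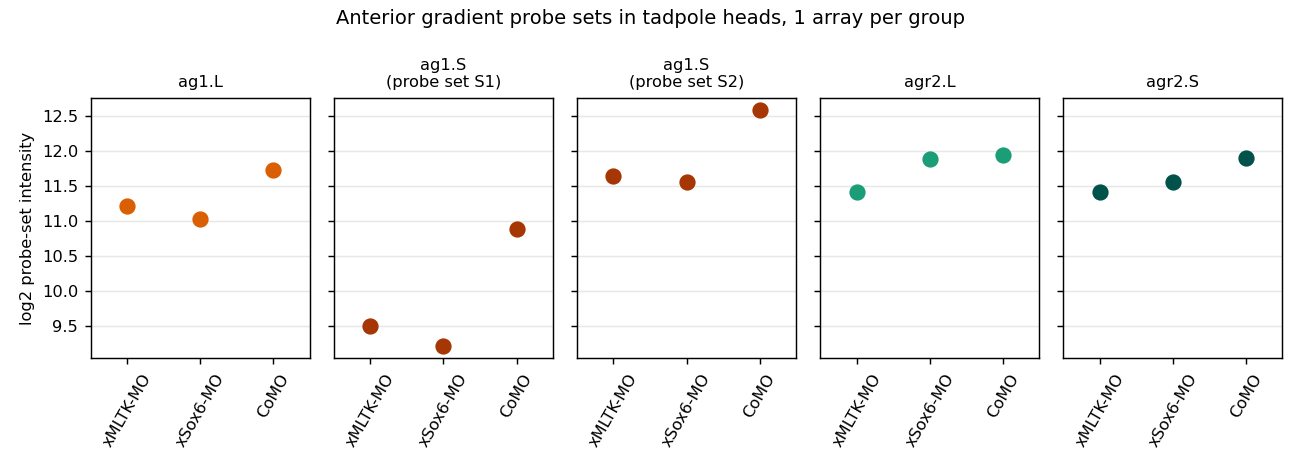
Log2 intensity (vertical axis) of the 5 probe sets of ag1 and agr2, 1 panel each, on the xMLTK-MO, xSox6-MO and CoMO arrays (1 point per array, no replicates). CoMO is the highest array in each panel, the 3 ag1 probe sets are lowest in xSox6-MO, and both agr2 probe sets are lowest in xMLTK-MO.

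Set against all genes, ag1.S lay in the extreme lower end of both comparisons and the other copies did not. In xMLTK-MO minus CoMO, 1 of the 4 members, ag1.S, was at least 2-fold lower and 0 were higher, where 0.785% of the 7258 genes were lower and 1.28% higher by 2-fold. In xSox6-MO minus CoMO the counts were again 1, ag1.S, and 0, where 1.06% of genes were lower and 0.978% higher by 2-fold. Among the 1186 genes with a mean log2 intensity of at least 10, a range that holds all members, 1.01% were at least 2-fold lower in xMLTK-MO and 0.843% in xSox6-MO.

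Ranks give the same picture on a finer scale. Of the 7258 genes, 33 had a difference as low as or lower than that of ag1.S in xMLTK-MO, itself included, and 25 in xSox6-MO. This rank depended on the ag1.S probe set. Among 9617 probe sets of 1 symbol passing the filter, S1 was in the lowest 0.187% in xMLTK-MO and 0.166% in xSox6-MO. S2 was in the lowest 1.1% and 0.988%. The ag1.L difference was reached or passed by 6.10% of genes in xMLTK-MO and 3.10% in xSox6-MO. agr2.L and agr2.S were among the lowest 5.54% and 6.19% in xMLTK-MO. In xSox6-MO, 43.8% of genes were as low as agr2.L and 13.1% as low as agr2.S. agr2.L thus stood in the middle of the genes there. The 4 members had a median log2 difference of -0.51 in xMLTK-MO and -0.52 in xSox6-MO, where the median of all 7258 genes was -0.02 and -0.01.

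**Figure D2:**
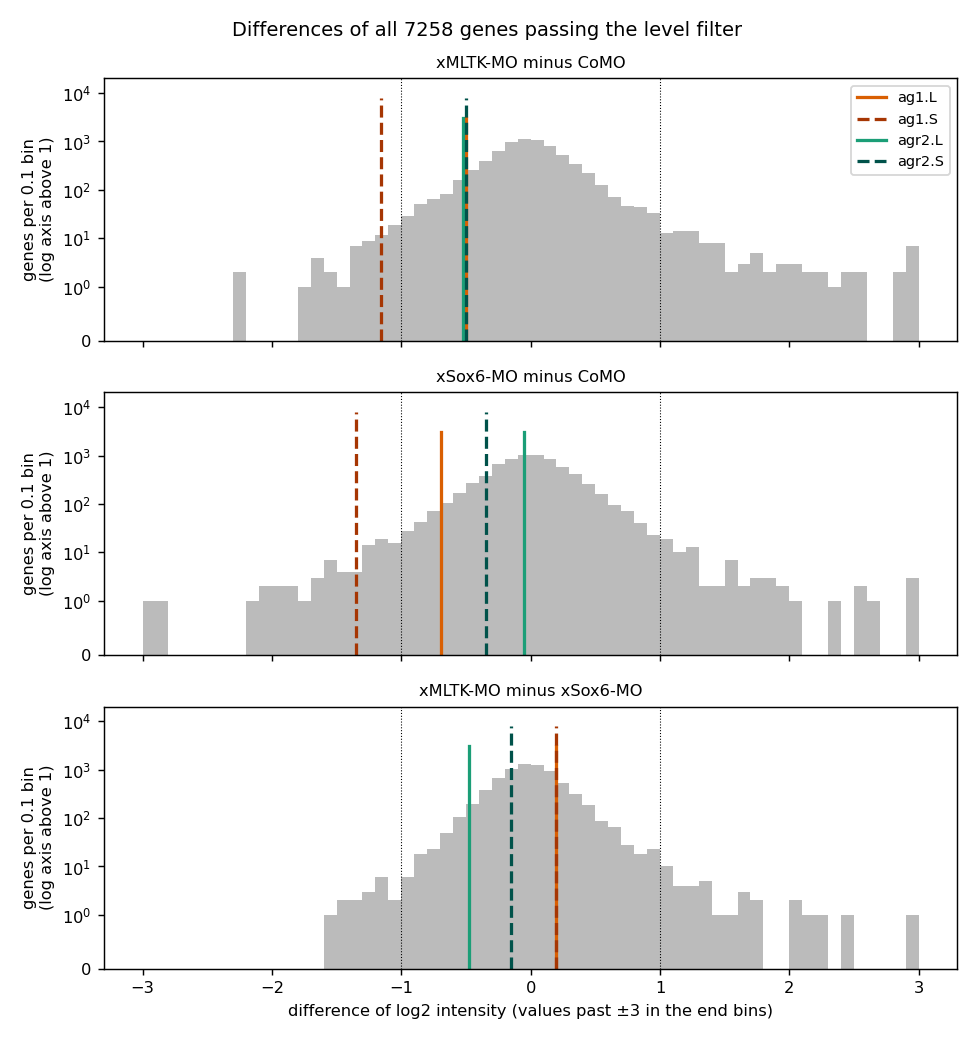
Number of genes (log axis above 1) per 0.1-wide bin of the difference of log2 intensity for the 7258 genes passing the level filter, in 3 panels, xMLTK-MO minus CoMO, xSox6-MO minus CoMO and xMLTK-MO minus xSox6-MO. Coloured lines mark the 4 members and dotted lines 2-fold. ag1.S lies past the lower 2-fold line in the first 2 panels, at -1.16 and -1.35, and no member does in the last.

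The knockdown arrays can also be compared directly, which leaves CoMO out. For ag1 the 2 arrays were close, with a log2 difference, xMLTK-MO minus xSox6-MO, of 0.19 for ag1.L and 0.20 for ag1.S. Neither value was extreme, since 81.3% and 81.7% of genes were as low or lower. For agr2 the xMLTK-MO array was the lower one, by -0.47 for agr2.L and -0.15 for agr2.S. The agr2.L value was among the lowest 3.44% of genes, and that of agr2.S among the lowest 25.6%. No member differed by 2-fold between the knockdowns, where 0.220% of genes were at least 2-fold lower and 0.496% at least 2-fold higher in xMLTK-MO.

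The 2 genes were then compared by their differences, as means over the .L and .S copies. ag1 had a mean log2 difference of -0.83 and agr2 of -0.51 in xMLTK-MO minus CoMO, a gap of -0.32 between the genes. In xSox6-MO minus CoMO the means were -1.02 for ag1 and -0.20 for agr2, a gap of -0.82. These 2 comparisons share the CoMO array, so a high or low CoMO value enters both. In xMLTK-MO minus xSox6-MO, which does not use CoMO, ag1 was at 0.19 and agr2 at -0.31, a gap of 0.51. For scale, the robust standard deviation of the difference over all genes, from the median absolute deviation, was 0.26, 0.28 and 0.22 in these 3 comparisons. A shift common to a whole array cancels in these gaps, so no centring changes them.

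Between copies, the differences of ag1.S and ag1.L, taken as gene means, lay further apart than those of agr2. The log2 difference of ag1.S was 0.66 below that of ag1.L in both comparisons with CoMO. For 1165 homeolog pairs with both copies passing the filter, the median absolute gap was 0.16 in xMLTK-MO and 0.17 in xSox6-MO, and 3.61% and 4.38% of pairs had a gap as large as that of ag1. The gap depended on the ag1.S probe set. It was 0.88 and 0.98 with S1 alone, reached by 1.29% and 1.46% of pairs, and 0.44 and 0.34 with S2 alone, reached by 10.5% and 22.4%. The agr2 copies were 0.02 apart in xMLTK-MO and 0.30 apart in xSox6-MO, gaps that 90.6% and 28.8% of pairs reached. In xSox6-MO the agr2 gap was thus close to that of ag1 read by S2. In xMLTK-MO minus xSox6-MO the ag1 copies were 0.003 apart and the agr2 copies 0.32. That small ag1 gap comes from averaging, since ag1.S minus ag1.L was 0.10 with S1 alone and -0.10 with S2 alone, gaps reached by 64.3% and 65.8% of pairs. Copies of a gene are alike in sequence, and how far their transcripts bind each other's probes was not tested.

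**Figure D3:**
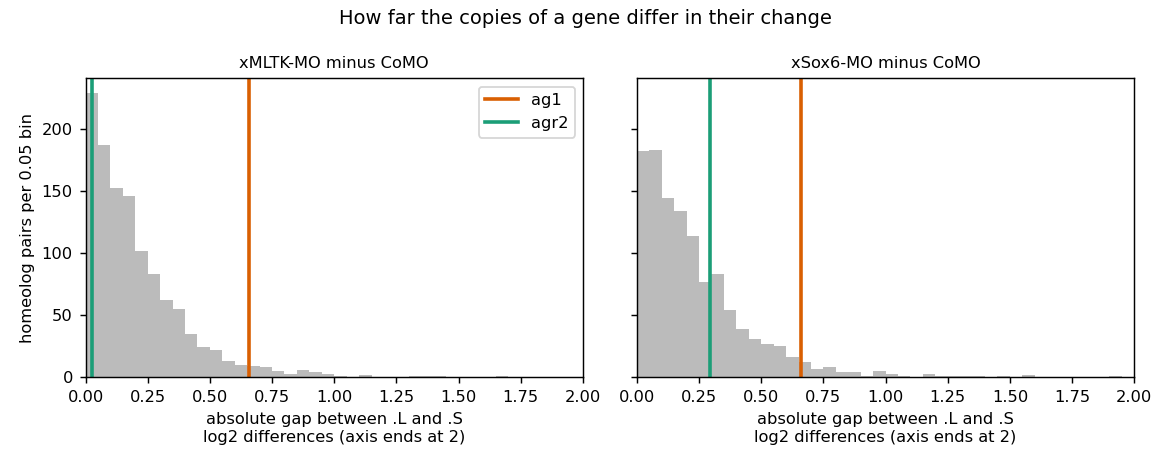
Number of homeolog pairs per 0.05-wide bin of the absolute gap between the .L and .S log2 differences, for 1165 pairs, in xMLTK-MO minus CoMO (left) and xSox6-MO minus CoMO (right). Lines mark ag1, at 0.66 in both panels as the mean of the ag1.S probe sets, and agr2, at 0.02 and 0.30.

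The other measured genes of the cement gland list stayed within 2-fold of CoMO in both knockdowns, as did most genes on the arrays. The list had 16 symbols besides the members, of which 12 were measured. The measured ones were transcription factors and signals of the gland and of the ectoderm around it. Among them, pitx1 and otx2 can induce the gland in Xenopus when supplied in excess. The symbols otogl, muc19 and cgs1 were not measured, so the list read regulators of the gland and not its products. Of 17 measured genes 14 passed the level filter, and 0 of them differed by 2-fold from CoMO in either direction. That is near the share of all genes, of which 0.785% were lower and 1.28% higher by 2-fold in xMLTK-MO, and 1.06% and 0.978% in xSox6-MO. Below CoMO were 6 of the 14 in xMLTK-MO and 3 of the 14 in xSox6-MO, with a median log2 difference of 0.04 and 0.20. Of all genes, 53.1% and 50.9% were below CoMO. The genes pitx1.L, otx2.L and otx2.S were picked out after their values were seen. pitx1.L had a log2 intensity of 8.54 in xMLTK-MO, 8.38 in xSox6-MO and 8.37 in CoMO. otx2.L had 8.61, 8.87 and 8.62 on the same arrays, and otx2.S 6.63, 6.86 and 6.29. Both copies of crx, also picked after their values were seen, were below CoMO in both knockdowns. The log2 difference in xMLTK-MO and xSox6-MO was -0.14 and -0.24 for crx.L, and -0.22 in both for crx.S. All were above the negative controls on each array. They are also expressed in brain, eye or mouth tissue, so they do not measure the gland alone. In whole heads, fewer gland cells and less RNA per cell cannot be told apart.

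The thioredoxin-like relatives of the anterior gradient proteins differed little, while some of the disulfide isomerase genes differed more. Of 5 measured genes of the thioredoxin-like family other than the members, 3 passed the filter, txn.L, txn2.L and txndc12.L, and their differences from CoMO lay between -0.10 and -0.001. txndc12, the closest of these to agr2 in mammals, is a resident of the endoplasmic reticulum, and txndc12.L had log2 intensities of 8.74 in xMLTK-MO, 8.79 in xSox6-MO and 8.84 in CoMO. Among the disulfide isomerases and their helpers 19 of 24 measured genes passed the filter, and 15 of them were lower than CoMO in each knockdown, with medians of -0.16 and -0.09, where 53.1% and 50.9% of all genes were lower. Centring, which moves all genes alike, turned both medians positive on poly-A controls, to 0.11 in xMLTK-MO and 0.26 in xSox6-MO. On hybridisation controls only the xSox6-MO median turned, to 0.06. In xMLTK-MO, pdia4.L, a general isomerase, was the 1 gene past 2-fold on the low side. On the high side there was 1, the pancreatic isomerase gene pdia2.L. Of all genes, 0.785% were lower and 1.28% higher by 2-fold in xMLTK-MO, and 1.06% and 0.978% in xSox6-MO. pdia4.L had log2 intensities of 9.81 in xMLTK-MO, 9.98 in xSox6-MO and 10.86 in CoMO, and in xMLTK-MO it fell short of 2-fold when centred on hybridisation controls (-0.95) or poly-A controls (-0.78). pdia2.L was 9.37-fold higher in xMLTK-MO and 2.84-fold higher in xSox6-MO, and no other gene of this list differed by 2-fold from CoMO in xSox6-MO. The log2 intensity of pdia2.L in CoMO, 6.40, was below the filter level.

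Most genes of protein folding and transport in the secretory route were also lower than CoMO as deposited, few of them by 2-fold. Their medians moved to near 0 or above it when arrays were centred on poly-A controls. Of 41 endoplasmic reticulum folding and stress genes passing the filter, 34 were lower in xMLTK-MO and 30 in xSox6-MO, with medians of -0.28 and -0.23. Of all genes, 53.1% and 50.9% were lower. At least 2-fold lower were 3 in xMLTK-MO and 1 in xSox6-MO, where 0.785% and 1.06% of all genes were. In each knockdown 1 was at least 2-fold higher, where 1.28% and 0.978% of all genes were. The 3 were ern2.S, which encodes a stress sensor found mainly in mucus-secreting epithelia in mammals, and both copies of hsp90b1, a chaperone gene of the endoplasmic reticulum named after its values were seen. The log2 difference of ern2.S was -1.02 for the xMLTK-MO array and -1.21 for the xSox6-MO array. In xMLTK-MO it fell short of 2-fold when centred on hybridisation controls (-0.92). The log2 intensity of ern2.S in xSox6-MO, 6.46, was below the filter level, and that in xMLTK-MO, 6.65, was just above it. hsp90b1.S was at -1.11 and -0.93 and hsp90b1.L at -1.02 and -0.81. The gene past 2-fold on the high side was ddit3.L, a transcription factor gene of the stress response, at 1.11 and 1.05. Of 61 genes of translocation and vesicle transport, 45 were lower in xMLTK-MO and 47 in xSox6-MO, where 53.1% and 50.9% of all genes were. Their median was -0.16 in both, with 0 genes past 2-fold. The retrieval receptor gene kdelr2.L was at -0.68 and -0.62 and kdelr3.L at -0.36 and -0.80. The medians of these lists lie closer to 0 than the medians of the 4 members, -0.51 and -0.52. Not every member lay further out, since agr2.L was at -0.05 in xSox6-MO. The spiked-in poly-A controls were also dimmer, by a median of -0.27 in xMLTK-MO and -0.35 in xSox6-MO, about the size of the list medians or larger. Centred on them, the folding and stress median was -0.01 and 0.11 and the transport median 0.11 and 0.18 in xMLTK-MO and xSox6-MO. This centring moves all genes alike, so each list kept its distance from the all-gene median, which was -0.02 and -0.01 as deposited.

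Markers of other surface and secretory cells were measured on the same arrays. For scale, 0.785% of all genes were lower and 1.28% higher by 2-fold in xMLTK-MO, and 1.06% and 0.978% in xSox6-MO. Below CoMO by any amount were 53.1% of all genes in xMLTK-MO and 50.9% in xSox6-MO. Of 11 mucous cell genes 6 passed the filter, with medians of 0.08 in xMLTK-MO and -0.05 in xSox6-MO and 0 past 2-fold. The O-glycosylation enzyme gene galnt4.L was at 0.55 and 0.36, and foxa1.S, a transcription factor gene of endoderm and secretory cells, at -0.09 and -0.40. The medians of the small secretory cell and ionocyte list, 12 genes, were 0.06 and -0.08, with 6 and 7 genes below CoMO. Here grhl3.S was at 0.67 and 0.73 and the carbonic anhydrase gene ca2.S at 0.56 and 0.59. Their other copies were named after their values were seen. grhl3.L differed less, at 0.20 and 0.36, and ca2.L went the other way, at -0.32 and -0.09. The medians of the ciliated cell list, also 12 genes, were 0.15 and 0.004, with foxj1.S, the master regulator gene of motile cilia, at 0.57 and 0.26 and the axonemal dynein gene dnai1.L at -0.02 and -0.53. The 18 epidermal keratinocyte genes had medians of 0.13 and 0.18. In that list krt62.L was at -1.51 and -1.12, and krt70.L at 0.84 and 1.08. Their other copies, named after their values were seen, differed less, with krt62.S at -0.11 and -0.15 and krt70.S at 0.04 and 0.28.

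The hatching gland, another secretory tissue of the head surface, had its largest differences above CoMO. Of 9 measured genes 5 passed the filter, and their summed intensity was 3136 in xMLTK-MO, 2538 in xSox6-MO and 969 in CoMO. A single gene, astl3a.1.L, made nearly all of this difference, since the other 4 summed to 857, 828 and 794. Within that sum, opposite differences largely offset each other. xepsin.S had an intensity of 290 in xMLTK-MO, 292 in xSox6-MO and 49.5 in CoMO, and ctsl.L had 169, 138 and 401. Past 2-fold in each knockdown were 2 genes on the high side and 1 on the low side. Of all genes, 1.28% and 0.978% were that far higher in xMLTK-MO and xSox6-MO, and 0.785% and 1.06% that far lower. astl3a.1.L, an astacin protease of the hatching enzyme family, had a log2 intensity of 11.15 in xMLTK-MO, 10.74 in xSox6-MO and 7.45 in CoMO, and xepsin.S had 8.18, 8.19 and 5.63. The third was the cathepsin gene ctsl.L, named after its values were seen, at -1.24 and -1.54. Not above the filter were xepsin.L, pax3.S, astl2b.L and astl2d.1.L. xepsin.S passed the filter on its mean log2 intensity, but its CoMO value, 5.63, was below the filter level. It thus passed only through its higher knockdown values, which favours a call on the high side. The part of these cells in the ag1 result was not tested.

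The endoderm and pharynx list had medians of 0.39 in both knockdowns over the 9 of 23 genes that passed the filter. Of these, 3 were at least 2-fold higher in xMLTK-MO and 2 in xSox6-MO, where 1.28% and 0.978% of all genes were. The transcription factor genes gata5.L and gata5.S were at 1.67 and 1.48 in xMLTK-MO and at 1.24 and 1.12 in xSox6-MO. The log2 intensity of gata5.S in CoMO, 6.41, was below the filter level. Of genes tied to anterior gradient proteins through regeneration, receptors or growth factor signals, 9 of 14 passed the filter and 0 differed by 2-fold with the values as deposited. Below CoMO were 1 of these 9 in xMLTK-MO and 0 in xSox6-MO, with medians of 0.10 and 0.31. Of all genes, 53.1% and 50.9% were below CoMO. dkk1.S, an inhibitor of Wnt signalling, was at 0.98 and 0.96, just short of 2-fold, and at 1.09 and 1.11 when centred on hybridisation controls. Its log2 intensity in CoMO, 6.37, was also below the filter level. dag1.S, the dystroglycan gene, was at -0.02 and 0.81, and its other copy dag1.L, named after its values were seen, at 0.02 and 0.003.

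**Figure D4:**
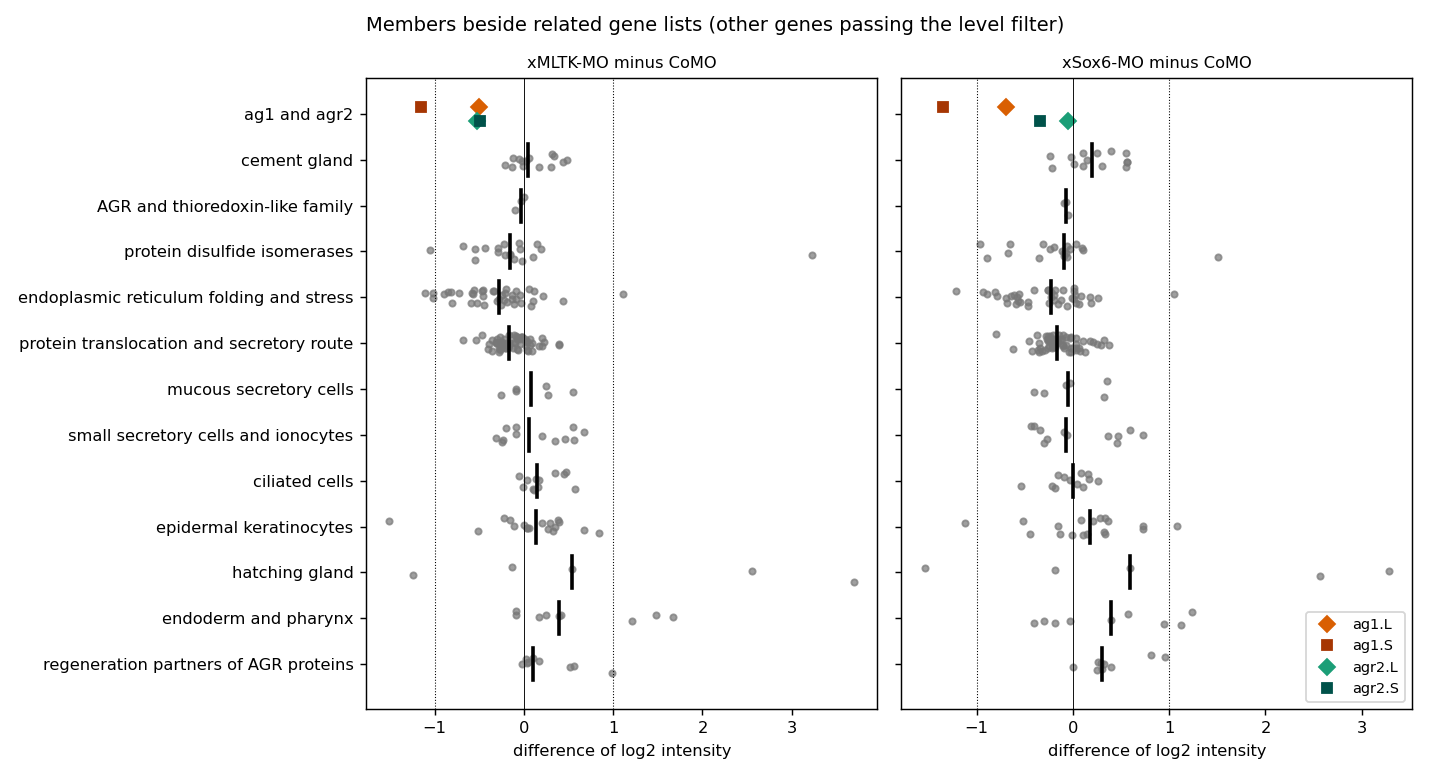
Difference of log2 intensity (horizontal axis) for the 4 members (coloured, top line) and for the other genes of 12 lists that passed the level filter (grey points, 1 per gene, black bar at the median), xMLTK-MO minus CoMO on the left and xSox6-MO minus CoMO on the right, dotted lines at 2-fold. The cement gland list has medians of 0.04 and 0.20 and the 4 members -0.51 and -0.52, with ag1.S the lowest member at -1.16 and -1.35.

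The genes closest in pattern to the members were found by the Euclidean distance between log2 intensities on the 3 arrays, each gene centred on its own mean. Closest to ag1.L among the genes passing the filter were kcnma1.L, a potassium channel gene, XB5934217.L, trip11.L, a Golgi protein gene, chpf.L, an enzyme gene of chondroitin synthesis, and aco1.L, at distances of 0.01 to 0.02. Closest to agr2.L were hdac2.S, a histone deacetylase gene, h2az1.S, a histone variant gene, ncaph.S, a condensin gene, cdk2.L, a cell cycle kinase gene, and ccnq.S, at 0.02 to 0.03. Counted from ag1.L and agr2.L, the other members were not near in this measure. ag1.S was 3797th in distance from ag1.L, agr2.L was 3756th, and agr2.S was 661st. The rank depended on the gene it was counted from. From ag1.S, chosen after the values were seen, ag1.L was 162nd at the same distance, 0.54. From agr2.L, agr2.S was 717th, ag1.L 5066th and ag1.S 6985th. Distances over 3 points leave many genes equally close, and likeness here means only a like profile over these arrays.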

How the data were processed

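Per the submitters' processing notes, the deposited intensity values were made by the authors with RMA, which subtracts background, forces arrays to a common distribution and gives 1 value per probe set. The series' design text names GeneChip operating Software 1.4 with GeneSpring GX 11.0.2. The values are linear, not logged, and their distributions nearly coincide (medians of 91.1, 89.8 and 92.7 in xMLTK-MO, xSox6-MO and CoMO), so that each value holds only relative to the other transcripts. Groups were taken from the treatment label. Biotinylated RNA had been made from 150 ng of total RNA, per the labels' protocols.

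Symbols came from the platform annotation, with 15495 probe sets of 1 symbol outside the controls, 279 with several symbols (left out) and 15384 matched by gene identifier to a RefSeq table of assembly Xenopus_laevis_v10.1, used for names and gene order only. Where a symbol had several probe sets, their log2 values were averaged. Python 3.11.15, numpy 2.4.6 and pandas 2.3.3 were used, and the steps were tested on simulated data. No test was run, since 1 array per group leaves no residual degrees of freedom.

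Members and lists were chosen with earlier results of these data known. Named genes of the lists are those of the cement gland, thioredoxin-like and disulfide isomerase lists at least 2-fold from CoMO, and for each other list the 2 with the largest absolute difference from CoMO. Genes closest in pattern are the 5 nearest to the copy of each gene with the higher mean log2 intensity, a choice that rests on brightness and not on RNA level. Alternatives were renewed quantile normalisation, centring on 27 hybridisation controls, a pseudocount of 16, the brightest probe set, values raised to the highest of 23 negative controls, and other level filters. Centring on 36 poly-A controls, each ag1.S probe set alone and the hatching gland sum without astl3a.1.L were added after seeing the data.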

Additional observations from a re-analysis of the deposited data

How the results depend on the processing

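No paired analysis was possible because each group had 1 array. The 8 alternatives were not independent checks of the members. Raising values to the negative controls left every member as deposited, and the brightest probe set of ag1.S is S2. The count of members at least 2-fold lower in xMLTK-MO, 1 with the values as deposited, was 0 with the brightest probe set, with the S2 probe set of ag1.S alone and after centring on poly-A controls, because ag1.S then differed by -0.94, -0.94 and -0.88. In xSox6-MO the count stayed at 1 under all 8 alternatives, with ag1.S between -1.67 and -1.004. The differences of ag1.L, ag1.S, agr2.L and agr2.S in xMLTK-MO, and of both ag1 copies in xSox6-MO, were negative under all 8. In xSox6-MO, agr2.L turned positive when centred on hybridisation controls (0.11) or poly-A controls (0.30), and agr2.S was at 0.002 with the latter. Centring moved all differences from CoMO up by 0.10 and 0.15 (hybridisation) or 0.27 and 0.35 (poly-A) in xMLTK-MO and xSox6-MO. Negative list medians nearer to 0 than that shift thus turned positive. The medians of the thioredoxin-like list also turned positive with the brightest probe set, to 0.08 and 0.13. Among the other named genes followed through the alternatives, some calls at 2-fold were lost. On hybridisation controls pdia4.L and ern2.S in xMLTK-MO and krt62.L in xSox6-MO were at -0.95, -0.92 and -0.96. On poly-A controls they were at -0.78, -0.74 and -0.77, and ern2.S in xSox6-MO was at -0.87. With the pseudocount, ern2.S and muc2l.L in xMLTK-MO were at -0.91 and 0.99. ddit3.L, krt70.L and gata5.S in xSox6-MO were then at 0.97, 0.97 and 0.99. Both copies of hsp90b1 and ctsl.L, named after their values were seen, were not followed in this way. In xMLTK-MO hsp90b1.L, hsp90b1.S and ctsl.L were at -1.02, -1.11 and -1.24. The poly-A shift of 0.27 would take all of them short of 2-fold there, and the hybridisation shift of 0.10 would take hsp90b1.L. Calls were gained by dkk1.S in xMLTK-MO (1.01 after renewed quantile normalisation) and in both knockdowns under either centring (1.09 to 1.30), and on poly-A controls by krt70.L in xMLTK-MO (1.11) and by grhl3.S, dag1.S and muc2l.L in xSox6-MO (1.08, 1.15 and 1.04). The gap between ag1 and agr2 kept its sign under all 8 alternatives in each comparison. It lay between -0.43 and -0.21 in xMLTK-MO, -0.98 and -0.66 in xSox6-MO, and 0.46 and 0.56 in xMLTK-MO minus xSox6-MO. Neither centring nor raising values to the negative controls could move this gap, so its sign was fixed in advance under them.

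Counts of all genes moved more. After centring on poly-A controls, 20 genes were at least 2-fold lower and 201 higher in xMLTK-MO, and 25 and 245 in xSox6-MO, where centring on hybridisation controls gave 113 higher, against 57 and 93, and 77 and 71, as deposited. Without a level filter, 87 were lower and 158 higher in xMLTK-MO, 120 were higher in xSox6-MO, and 28 were lower and 64 higher in xMLTK-MO minus xSox6-MO. At a mean log2 of at least 10, where fewer genes enter, the counts lower and higher were 12 and 4, 10 and 4, and 2 and 6 in these comparisons.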

Other observations

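Mucins are the main product of mucous cells, and 2 genes annotated as mucin-like were read after their annotation had been seen, since the list of mucous cell genes did not hold their symbols. muc2l.L had a log2 difference from CoMO of 1.03 in xMLTK-MO and 0.70 in xSox6-MO. It was read by several probe sets, and with the brightest alone the values were 1.37 and 0.30. otogl2.L, an otogelin-like gene, was at 0.17 and -0.13. Neither was lower by 2-fold in a knockdown, which holds for all but 0.785% and 1.06% of the 7258 genes in xMLTK-MO and xSox6-MO.

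By the same distance measure as for ag1.L and agr2.L, and chosen after the values were seen, the genes closest to ag1.S were cav3.2.S, a muscle caveolin gene, grk1.L, a photoreceptor kinase gene, crp.4.L, klhl40.S and ern2.S, at distances from 0.06 to 0.11. Of the members, ag1.L was 162nd in distance from ag1.S, agr2.S 540th and agr2.L 2003rd. Closest to agr2.S were nr2c1.L, acox2.L, bnip3.S, tuba4b.L and kif23.S. Of the members, agr2.L was 1332nd in distance from agr2.S, ag1.L 1794th and ag1.S 6633rd. 

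In the RefSeq gene order, agr2.L lies between tspan13.L and agr3.L, and agr2.S between tspan13.S and ahr.S. Among these neighbours tspan13.L differed from CoMO by 0.04 and 0.09 in the xMLTK-MO and xSox6-MO heads, tspan13.S, below the level filter, at -0.01 and -0.37, and ahr.S, also below it, at -0.14 and -0.06. Next to ag1.L lies asb1.L, below the level filter, at -0.40 and -0.45. The nearest neighbours of ag1.S were not measured, and ndufa10.S, a step further, was at -0.04 and -0.46.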
